A study of Mus musculus with 6 samples.

Results

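The genes described here are the laminin chains Lama2, Lama3, Lama4, Lamb2 and Lamc1 and the receptor subunit Itgb1, 6 of the 203 named genes on a small directed array. Each was represented by 1 probe, and members were taken by the gene symbol that the platform annotation gives a probe. The array was hybridised with total RNA from cryosections of soleus, a slow postural muscle of the calf, of C57Bl/6 mice. All 6 samples are labelled HUR wt Control and numbered 1 to 6. The labels do not explain the code HUR and otherwise give no treatment, age or sex, and there is no second group. Whether each array came from a separate animal is not stated, so p-values measure only the spread between these arrays, which may be technical in part. The muscle fibre genes Myh7, Mb, Des and Ttn lay above the noise bound, defined below, on all 6 arrays.

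Laminins are trimers of an alpha, a beta and a gamma chain that polymerise into the sheet of basement membrane around each muscle fibre, capillary and nerve terminal. The alpha chain carries the C-terminal globular domains that cell surface receptors bind, and the gamma 1 chain encoded by Lamc1 is shared by most laminins. Lama2 encodes the alpha chain of the muscle fibre basement membrane, whose loss causes a congenital muscular dystrophy in mice and humans. Lama4 encodes an alpha chain of vessel walls and Lama3 one known chiefly from epithelia such as skin. Lamb2 encodes a beta chain enriched at the neuromuscular junction. Itgb1 encodes integrin beta 1, the subunit that pairs with several alpha subunits to form laminin and fibronectin receptors.

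The starts of the genes differed in base composition where a RefSeq promoter could be matched by gene identifier, which held for 3 of the 6 genes, Itgb1, Lama2 and Lamb2. Their levels had r between -0.0039 and 0.17 with one another over the arrays, and they are shown for the contrast between a CpG-rich and a CpG-poor start. Each runs 5′ to 3′ from 250 bases before to 50 after the start, in GRCm38.p6, and capitals mark a GC box (GGGCGG on either strand). Itgb1 lies at chr8:128685404-128685703 on the + strand, Lama2 at chr10:27616893-27617192 on the - strand and Lamb2 at chr9:108479612-108479911 on the + strand.
Itgb1: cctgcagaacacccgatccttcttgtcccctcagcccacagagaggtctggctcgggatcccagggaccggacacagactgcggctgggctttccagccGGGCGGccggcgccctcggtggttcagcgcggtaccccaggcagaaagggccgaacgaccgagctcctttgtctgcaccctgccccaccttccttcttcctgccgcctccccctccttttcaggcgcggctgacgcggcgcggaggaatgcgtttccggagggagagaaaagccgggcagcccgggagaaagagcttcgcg
Lama2: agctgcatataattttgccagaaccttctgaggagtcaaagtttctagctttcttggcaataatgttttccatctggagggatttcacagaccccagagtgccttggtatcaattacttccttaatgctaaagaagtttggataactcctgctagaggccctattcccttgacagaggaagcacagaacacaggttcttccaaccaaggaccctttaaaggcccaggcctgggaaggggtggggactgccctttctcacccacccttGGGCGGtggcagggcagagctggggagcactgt
Lamb2: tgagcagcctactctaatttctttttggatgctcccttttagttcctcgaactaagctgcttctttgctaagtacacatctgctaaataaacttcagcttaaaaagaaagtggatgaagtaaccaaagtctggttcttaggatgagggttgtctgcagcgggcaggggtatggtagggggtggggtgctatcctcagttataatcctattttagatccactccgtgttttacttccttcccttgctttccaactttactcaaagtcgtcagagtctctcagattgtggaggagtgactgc
The Itgb1 window was 67.3% G and C with 27 CpG dinucleotides, against medians of 52.7% and 7 over 32851 promoters of the same length. The Lama2 window was 50.3% G and C with 1 CpG, and the Lamb2 window 44.0% with 4. A GC box was found once in Itgb1, once in Lama2 and not in Lamb2, and 35.7% of all promoters held one. The E-box CANNTG, a palindrome, occurred once each in Lama2 and Lamb2 and not in Itgb1, and 72.3% of all promoters held it. None of the 3 windows held TATAAA or CCAAT on either strand, which 13.6% and 37.4% of all promoters held. These matches are descriptions of letters, and the arrays measured no binding.

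Across the whole array, 223 probes were measured per sample. Deposited intensities were linear, were at or below 0 for 27 to 67 probes per array, and had medians between 0.0053 and 0.0277, so arrays were centred before levels were compared. The size of the most negative intensity of an array was taken as its noise bound. It ranged from 0.0018 in control 6 to 0.0087 in control 4, which was also the brightest array. In control 2 the bound of 0.0062 exceeded the median intensity of 0.0053, and only 109 probes lay above it, against 143 to 166 on the other arrays.

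Lamb2, Lamc1 and Itgb1 were above the noise bound on all 6 arrays, and Lama2, Lama3 and Lama4 on 5, every one but control 2. The 3 of 6 genes detected on all arrays compare with 47.5% of all probes (106 of 223). Without control 2 the count was 6 of 6, against 57.8% of probes, and 58.3% of probes lay above the bound on at least 5 arrays. Itgb1 intensities in controls 1 to 6 were 0.155, 0.0510, 0.0773, 0.248, 0.0541 and 0.0428, that is 8.23 to 45.6 times the bound of the array. For Lamc1 they were 0.0673, 0.0196, 0.0399, 0.1018, 0.0277 and 0.0224, or 3.16 to 19.8 times the bound. The Lamb2 probe gave 0.0162, 0.0169, 0.0266, 0.0943, 0.0211 and 0.0163, or 2.73 to 10.8 times the bound. These 3 genes therefore had a measurable signal on every array, including the noisy control 2.

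Signal of the alpha chains was closer to the noise or more variable. Lama4 intensities were 0.0109, 0.0056, 0.0202, 0.0426, 0.0200 and 0.0150, which put control 2 at 0.903 times its bound and the other arrays at 3.21 to 8.70 times. Lama2, the alpha chain of the fibre sheath itself, gave 0.0053, 0.0014, 0.0052, 0.0213, 0.0068 and 0.0049. It was never more than 2.96 times the bound, and it reached 0.226 times the bound in control 2. A low signal is a property of probe and transcript together, and levels of different probes were not ranked. Lama3 intensities were 0.0048, 0.0003, 0.0443, 0.0621, 0.1288 and 0.1323, from 0.0484 times the bound in control 2 to 56.0 and 73.5 times in controls 5 and 6. The Lama3 probe thus went from no reliable signal to a strong one within a single control group.

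**Figure D1:**
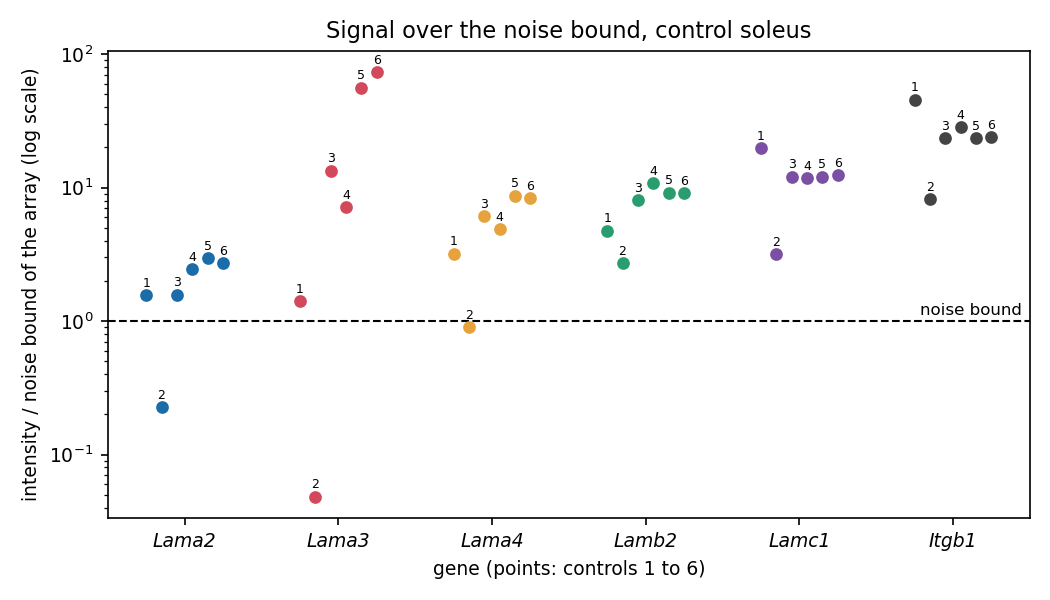
Intensity divided by the noise bound of the same array (log scale) for each gene, 1 numbered point per control array; the dashed line is the bound. Lamb2, Lamc1 and Itgb1 lie above the line on all 6 arrays, while Lama2, Lama3 and Lama4 fall below it in control 2 alone.

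The other laminin and receptor genes of the array ranged from signal on every array to none. Of 12 laminin genes listed, 8 were on the array. Lama5, an alpha chain of vessels and the synaptic basement membrane, was above the bound on 5 arrays, again all but control 2. Lamb1, the beta chain of most of the fibre basement membrane, was above it on 1 array, at 0.0068 in control 6, with -0.0001 to 0.0030 on the others. Lamb3, a beta chain that partners the Lama3 product in epithelial laminin, was above the bound on none, with -0.0041 to 0.0023. Of 14 genes listed for laminin and other matrix receptors, 4 were on the array. Itgb5 was above the bound on 6 arrays, Itgav on 5 and Itga2 on none. No gene of the list of other basement membrane components, which holds collagen IV, nidogens and perlecan, was on the array. A probe below the bound sets no lower limit on its transcript.

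The centred levels (log2 intensity relative to the array median over 152 measured genes and unnamed probes) described the spread. Lama4 lay at -0.46 ± 0.48 (SD, n = 6), with control 2 lowest at -1.35 and the others from -0.56 to -0.04. Lama2 lay at -1.99 ± 0.71, with control 2 lowest at -3.35 and the others from -2.21 to -1.48. By the deposited values control 2 was the lowest array for 3 of the 6 genes, these and Lama3, and for 23.7% of the 152. For all 3 its value fell under its noise bound, which corresponds to a level of -1.21, so its size is not known. Raised to the bound, control 2 would be the highest array for Lama2, above control 1 for Lama3 and still the lowest for Lama4, so that its place is not known for Lama2 and Lama3. Without control 2 the SD was 0.23 for Lama4 and 0.29 for Lama2. The median SD over all 152, with all arrays, was 0.54.

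Lama3 spread far more widely. Its level was highest in controls 6 and 5, at 3.04 and 2.65, lay at 0.88 and 0.07 in controls 3 and 4, and was lowest in controls 1 and 2, at -1.75 and below the bound. Raised to the bound, control 2 would sit above control 1, so the order of these 2 arrays is unknown. With the value of control 2 raised in that way, the highest array was 27.6-fold above the lowest. No marker of epithelium or skin was on the array, so admixture of such tissue was not tested.

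Among the other 3 genes, Lamb2 was the steadiest. It lay at 0.19 ± 0.25 and within 0.01 to 0.24 on 5 arrays, with control 4 at 0.67. Without control 4 its SD was 0.10. Lamc1 lay at 0.82 ± 0.63, with control 1 at 2.06 and the others from 0.43 to 0.78. Itgb1 lay at 1.94 ± 0.70, with control 1 at 3.27 and the others from 1.40 to 2.06. Control 1 exceeded the next array 2.43-fold for Lamc1 and 2.30-fold for Itgb1. Without it their SDs were 0.17 and 0.28. Control 1 was the highest array for 2 of the 6 genes and for 33.6% of the 152.

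**Figure D2:**
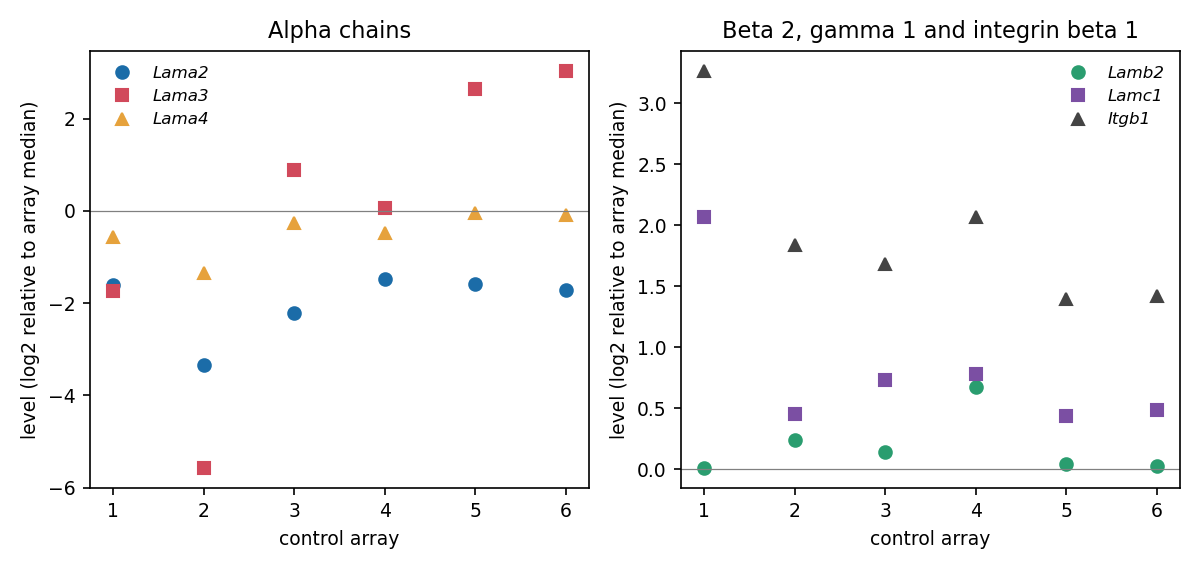
Level of each gene (log2 relative to the array median) on control arrays 1 to 6, 1 point per array. The alpha chains are on the left and Lamb2, Lamc1 and Itgb1 on the right. The axes differ in range, and the labels do not say whether the array numbers follow an order. Lamc1 and Itgb1 stand highest in control 1, and Lama3 reaches 3.04 in control 6; the points of the alpha chains in control 2 lie below the noise bound.

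Lama3 was the 1 of these 6 genes whose spread exceeded that of features of like intensity, against 1.32% of all 152 (2 features). Its SD of 3.20 was the largest on the array and compared with a prior SD of 0.43 (adjusted p = 0.00852, limma's prior variance with a one-sided F test, Benjamini-Hochberg over 152). The adjusted p was 0.0215 with values raised to the noise bound, 0.417 without control 2 (SD 1.96), 0.305 after quantile and 0.639 after cyclic loess normalization. Itgb1 had an adjusted p of 0.911 in limma at a prior SD of 0.49, and Lamc1 0.911 at 0.46. Lama4, Lama2 and Lamb2 had 0.921, 0.961 and 0.988. The SD of Lamb2 was larger than that of only 8.55% of the 152. The median SD of the 6 genes was 0.66. Of 15 other measured genes of the laminin, receptor, adhesion and matrix lists, 0 passed the same limma test and 0 had an unadjusted p under 0.05, against 5.92% of all 152. A failure to pass does not show that a gene was constant.

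**Figure D3:**
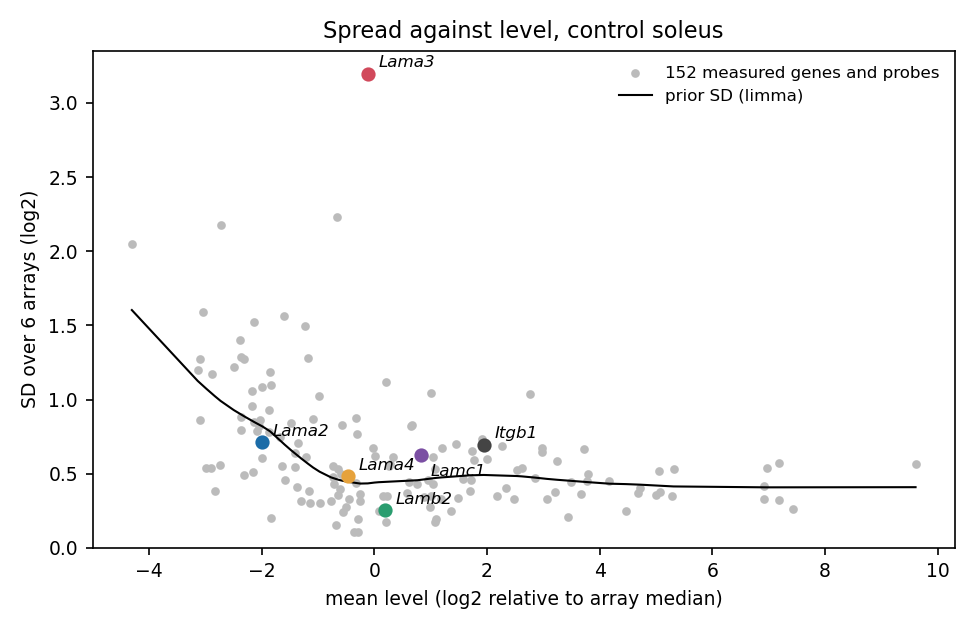
SD over the 6 arrays (log2) against mean level for the 152 measured genes and probes (grey), with the 6 genes in colour and limma's prior SD as a line. Lama3 lies far above the line at an SD of 3.20, and Lamb2 lies below it at 0.25.

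Co-variation was described for the 15 pairs of the 6 genes by Pearson's r of their levels. The median r was -0.0039, beside 0.0635 over all 11476 pairs of the 152, and r was above 0 for 7 of 15 pairs against 52.7%. An exact two-sided permutation test over all 720 pairings of arrays gave an unadjusted p under 0.05 for 2 of 15 pairs, against 16.7% of all pairs. After Benjamini-Hochberg adjustment over the 11476, 0 of 15 passed, with 0% of all pairs, and the smallest adjusted p of any pair in the table was 0.192. With Spearman's rho 0 passed as well. No p of 720 pairings can be smaller than 0.00139, so the adjusted test could call a pair only if many pairs came near that floor.

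Lama2, Lamb2 and Lamc1, an alpha, a beta and a gamma chain that can assemble into 1 trimer, had low or unstable correlations. Lama2 and Lamc1 had r = 0.33 (exact permutation p = 0.408, adjusted p = 0.671; rho = 0.26, exact p = 0.658, adjusted 0.866), and r was 0.12 without controls 2 and 3 and -0.00047 without controls 1 and 4. For Lama2 with Lamb2, r was 0.0113 (exact permutation p = 0.943, adjusted p = 0.975; rho = 0.0286, exact p = 1, adjusted 1), with 0.83 without controls 2 and 3 and -0.96 without controls 2 and 4. With 1 array left out it went from -0.97 without control 4 to 0.30 without control 2. Between Lamb2 and Lamc1, r was -0.18 (exact permutation p = 0.686, adjusted p = 0.848; rho = -0.14, exact p = 0.803, adjusted 0.936), -0.34 without controls 2 and 4, 0.19 without controls 1 and 4, and 0.70 without control 1. The within-array ratio of 2 probes does not depend on centring, and its SD over arrays was 0.78, 0.76 and 0.72 on the log2 scale for these pairs, beside a median of 0.80 over all pairs. A shared pattern of these chains was not detectable with this number of arrays.

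Lamc1 and its receptor subunit Itgb1 stayed closest to each other. Their r was 0.96 (exact permutation p = 0.0208, adjusted p = 0.230; rho = 0.83, exact p = 0.0583, adjusted 0.332). The ratio of their intensities differed by at most 1.36-fold between any 2 arrays, while each gene alone spanned 3.10-fold and 3.66-fold. The SD of that log2 ratio was 0.19, and 1.25% of all pairs had a smaller one. The correlation rested on control 1: r was 0.67 without it, 0.31 without controls 1 and 4, the arrays farthest from the Lamc1 median, and 0.55 without controls 1 and 5, those farthest for Itgb1. Without control 1, Lamb2 had r = 0.93 with Itgb1, against -0.0039 with all arrays (exact permutation p = 0.999, adjusted p = 0.999; rho = 0.0857, exact p = 0.919, adjusted 0.979).

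Of 6 marker sets with measured genes, control 1 lay outside the range of the other arrays in 2, fibroblast and endothelial. The fibroblast markers on the array, Pdgfra and Fn1, 2 of 7 listed, had a summed level (linear, in units of the array median) of 8.78 in control 1 and 3.78 to 6.21 on the others. A second Fn1 probe was above the bound on no array and did not enter the sum. For the endothelial markers, of which 5 were measured and Nos3 was above the bound on none, the sum was 5.98 in control 1 and 8.06 to 13.1 on the others. Pecam1, Flt1 and Cdh5 were lowest in control 1, whereas Kdr was second highest and Tek was at -1.60 there, against -2.12 to -1.60 on the others with control 2 below the bound. The muscle fibre markers summed to 429.3 in control 1, within the 244.9 to 544.1 of the others. The pericyte marker Pdgfrb at 0.640 (0.589 to 0.896 on the others) also lay within the others. So did the satellite cell markers Myod1 and Myog at 0.801 (0.336 to 1.13), with Myod1 below the bound in controls 2 and 3. The sum of Fabp4 and Cd36, listed as adipocyte markers, lay within the others too, at 13.5 (12.5 to 38.3). Of 7 measured matrix protease and inhibitor genes, 6 were highest in control 1, against 33.6% of all 152, with 0 of 7 past the spread test. For Plau, one of the 6, the value of control 2 was below the bound, so its highest array is not known. The part of any of these in the levels of Lamc1 and Itgb1 was not tested, and a change in cell share cannot be told apart from a change in RNA per cell.

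Lama3 and Lama4 rose and fell in nearly the same order, by very different amounts. Their r was 0.98 (exact permutation p = 0.00278, adjusted p = 0.196; rho = 0.94, exact p = 0.0167, adjusted 0.254). It stayed between 0.96 and 0.99 when any 1 array was left out, and was 0.96 without controls 2 and 6 or without controls 2 and 5. With values raised to the noise bound r was 0.81. Over the same arrays Lama4 spanned 2.49-fold, or 2.25-fold with control 2 raised to its bound, beside 27.6-fold for Lama3. The probe identifiers of Lama2, Lama3, Lama4 and Lamc1 are consecutive, and the sources used here do not say what they mean for the layout. Over 70 pairs of measured features with consecutive identifiers the median r was 0.52, with 7 of the 70 above 0.9, against 0.0635 and 3.97% over all pairs. The part of probe position was not tested. The other consecutive pairs of these chains, Lama2 with Lama3 and Lama4 with Lamc1, had r = 0.76 and -0.0710.

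By rank, the alpha chains Lama3 and Lama4 ordered the arrays nearly opposite to the receptor, without passing the test. For Lama4 with Itgb1, r was -0.31 (exact permutation p = 0.474, adjusted 0.718) and rho was -0.83 (exact p = 0.0583, adjusted 0.332), and for Lama3 with Itgb1, r was -0.45 (exact p = 0.365, adjusted 0.637) and rho was -0.77 (exact p = 0.103, adjusted 0.412). Without control 2, whose alpha chain values lie in the noise, r was -0.89 and -0.94. Without centring both turned positive, at 0.54 and 0.0344. Lama2 followed Lama3 and Lama4 with r = 0.76 and 0.81 (exact permutation p = 0.0931 and 0.0931, adjusted 0.362 and 0.362) and rho of 0.26 and 0.37 (exact p = 0.658 and 0.497, adjusted 0.866 and 0.783), through control 2 alone: without it r was -0.12 and -0.23. The remaining 5 pairs had r from -0.28 to 0.17 with adjusted p of 0.756 to 0.918 in the exact permutation test. Without control 2, Lamc1 had r = -0.90 with Lama3 and -0.81 with Lama4. Lamb2 then had -0.25 and -0.43 with the same chains, and Lama2 had 0.27 with Itgb1. None of these passed after adjustment.

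**Figure D4:**
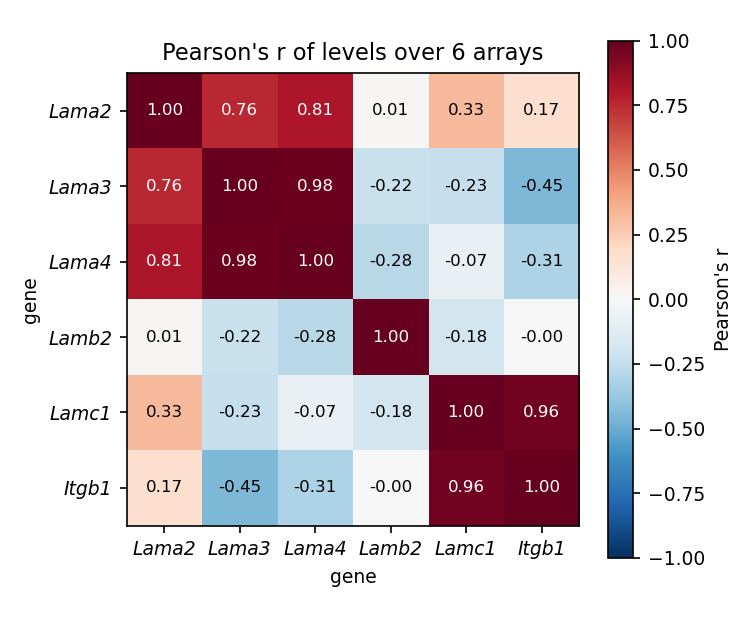
Pearson's r of levels over the 6 arrays for each pair of genes, from -1 (blue) to 1 (red). The values of 0.98 for Lama3 with Lama4 and 0.96 for Lamc1 with Itgb1 stand out, and those of Lamb2 lie between -0.28 and 0.0113.

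**Figure D5:**
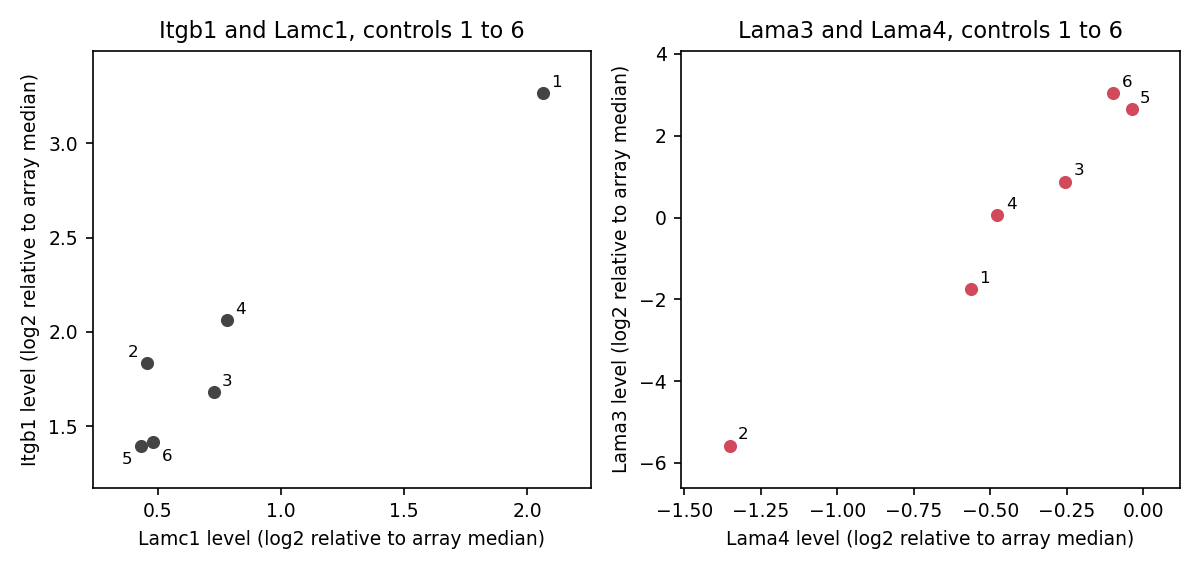
Levels (log2 relative to the array median) of Itgb1 against Lamc1 and of Lama3 against Lama4, 1 numbered point per control array. Control 1 lies apart in the left panel, and in the right panel the points span from control 2 at the lower left to controls 5 and 6.

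The genes most like each chain were sought among the 100 genes above the noise bound on all arrays, by r over the 6 arrays and as a description. For Lamc1 they were the fast myosin heavy chain Myh1 (r = 0.98), the fibroblast growth factor receptor Fgfr2 (0.98) and Itgb1 (0.96), all highest in control 1. For Itgb1 they were Fgfr2 (0.98), Lamc1 (0.96) and the mannose 6-phosphate receptor Igf2r (0.96), again all highest in control 1. For Lamb2 they were the epidermal growth factor receptor Egfr (0.87), the hypoxia factor partner Arnt (0.85) and the retinoblastoma gene Rb1 (0.80), all highest in control 4. Sharing that array is largely fixed by choosing genes by r.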

How the data were processed

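The authors deposited 1 table of intensities for 223 probes and 6 arrays of control soleus, each hybridised with 3 µg of total RNA per the labels. How the authors scanned, background-corrected or scaled the arrays is not given in the sources used here, and no genome build is named. The platform annotation names 1 gene for 205 probes, and 204 of their identifiers were found in the RefSeq gene table of GRCm38.p6.

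Probes above 0 on all 6 arrays were brought to log2, probes of a gene averaged and each array centred on its median over the resulting 152 genes and unnamed probes. Excess spread was tested with limma 3.58.1 (R 4.3.3, statmod 1.5.0; intercept fit, robust prior with intensity trend, 6.12 prior degrees of freedom, one-sided F test). Correlations used exact permutation over 720 pairings. Both were adjusted by Benjamini-Hochberg over the whole table at a threshold of 0.05. Both were also run on simulated data, the correlations before adjustment only. There the spread test recovered few features when many had a wide spread. The number of arrays and the signal over background limit the precision.

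The genes, lists and tests were chosen with earlier results of these data known. The text names the 6 genes, listed genes on the array, and for each of the 6 detected on all arrays the 3 genes of highest r. Alternatives were other scalings, values raised to the noise bound, a noise-bound filter, a pseudocount of 0.0015 (the median size of negative intensities), other priors, Spearman's rho, other bounds and each replicate left out.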

Additional observations from a re-analysis of the deposited data

Results flagged for a closer look

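In a group of 6 arrays, a value stood apart where its gap to the nearest other array exceeded 0.625 of the whole range. Among the 9 measured genes of the lists of laminin chains and receptors, which do not hold Itga8, this held for 4, and over all 152 features for 12.5%, while chance alone gives about 1 in 20. The Lamc1 level of 2.06 and the Itgb1 level of 3.27, both in control 1, were the highest of their genes, with gaps of 0.79 and 0.64 of the range. The Lamb2 level of 0.67 in control 4 was the highest, with a gap of 0.65 of the range. The Itgb5 level of -1.07 in control 2 was the lowest, with a gap of 0.64 of the range. That value lay close to the noise, at 1.10 times the bound, against 4.09 to 7.17 times on the other arrays. Lamb1, left out of the levels because it was not above 0 on every array, had an intensity of 0.0068 in control 6, 3.78 times the noise bound, and lay below the bound on the other 5 arrays.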

How the results depend on the processing

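Lama3 was the 1 gene past the spread test as reported, without centring and with values raised to the noise bound. The count was 0 after cyclic loess or quantile normalization, with the pseudocount, without the trend, without robust estimation and with the noise-bound filter, which removes Lama3. Leaving out 1 replicate gave 0 to 1, with 0 without replicate 2. The number of genes above the bound on all arrays was 3 to 6, with 6 without replicate 2, and 3 and 4 with the other bounds. No pair of the 6 genes passed for co-variation in any setting run, where the coarse permutation p-values left little room to pass. Quantile normalization called 151 of all 11476 pairs. That is too few for p-values of 0.00139 or more to pass the adjustment, so these calls are no valid result of the permutation test. As run, the test returns a p of 0 where a feature has equal values on all arrays, although its r is then undefined. The count was not read as co-variation. The median r of the pairs was 0.72 without centring, against 0.72 over all pairs of features. With values raised to the bound it was -0.18, against 0.19 over all pairs. Over the 3 pairs left by the noise-bound filter it was 0.20, against 0.19. With 1 replicate left out it was -0.23 to 0.11, against 0.0288 to 0.124.

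Several correlations, none past the threshold, changed sign. Without centring, where array brightness enters both genes, Lama3 had 0.33 with Lamb2, 0.20 with Lamc1 and 0.0344 with Itgb1, Lama4 had 0.81, 0.64 and 0.54 with the same genes, and Lamb2 had 0.72 with Lamc1 and 0.72 with Itgb1. After quantile normalization Lama2 had -0.0865 with Lamc1 and -0.0799 with Itgb1, and Lamb2 had 0.0208 with Itgb1. Cyclic loess gave -0.0528 for Lama2 with Itgb1. Values raised to the bound gave Lama2 -0.37 with Lama3, -0.64 with Lama4 and -0.0571 with Lamc1. The noise-bound filter gave Lamb2 0.10 with Lamc1 and 0.20 with Itgb1. The pseudocount gave Lamb2 -0.0382 with Lama2 and 0.0324 with Itgb1, and rho was 0.0857 for Lamb2 with Itgb1. With 1 replicate left out, Lama2 ranged from -0.12 to 0.88 with Lama3, -0.23 to 0.87 with Lama4, -0.97 to 0.30 with Lamb2 and -0.23 to 0.31 with Itgb1. Lamc1 ranged from -0.90 to 0.0655 with Lama3, -0.81 to 0.11 with Lama4 and -0.43 to 0.70 with Lamb2, and Lamb2 with Itgb1 from -0.24 to 0.93. Beyond the constructions named, the cause of these changes was not tested.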

Other observations

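Other genes with a link to laminin or integrin beta 1, chosen after the genes of the array were seen, were measured near the noise. Itga8, an integrin alpha subunit that pairs with beta 1, was above the noise bound on 4 arrays. Its level was highest in control 6 at -0.85. Controls 1, 3 and 5 lay at -2.20 to -1.40, and controls 2 and 4 were below their bounds, so that the place of control 2 among the others is not known. Rpsa, a ribosomal protein also described as a laminin receptor, was above the bound on 4 arrays, with a level of -1.47 in control 1. Itgav, an integrin alpha subunit of matrix receptors, had a level of -1.42 in control 1 and its lowest in control 6, at -2.93. In control 2 both Rpsa and Itgav were below the bound, which lies above their levels in control 1, so their highest array is not known. Neither Itga8, Rpsa nor Itgav passed the spread test (adjusted p = 0.921, 0.988 and 0.988 in limma).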
